A study of Mus musculus with 12 samples.

Results

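The genes mt-Nd1, mt-Nd2, mt-Nd3, mt-Nd4, mt-Nd4l, mt-Nd5 and mt-Nd6 encode the 7 subunits of respiratory complex I that the mouse carries on its mitochondrial genome. They were taken by name from the chromosome MT rows of the deposited count table, which lists 35275 genes, and all 7 passed the filter on low counts that left 16102 genes for testing. The set was chosen by its read counts in males: in earlier results of these data mitochondrially encoded genes were low in males from stressed dams, so their values in that comparison are described here without a test. The RNA came from the ileum, where the small intestine ends, of C57BL/6 pups on postnatal day 14. Stressed pups were born to 3 dams that had been restrained in a ventilated tube for 2 h a day between gestational days 7 and 19, and control pups to 3 dams left alone in their home cages. Each dam gave 1 male and 1 female pup, which made stressed males, control males, stressed females and control females, with 3 libraries in each group. The stress was applied to the dam and not to the pup, littermates share a dam, and the labels name no genetic change or drug in any group.

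Complex I, the NADH:ubiquinone oxidoreductase of the inner mitochondrial membrane, passes electrons from NADH to ubiquinone and pumps protons out of the mitochondrial matrix. Its mitochondrially encoded subunits all sit in the membrane arm and work together with core and accessory subunits made from nuclear genes, so a complete enzyme needs both genomes. Mitochondrial DNA is transcribed as long RNAs from both strands, which are cut into single messages largely at the transfer RNAs between them, and absorptive cells of the small intestine rely on mitochondria for much of the energy that transport takes.

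In coordinates of the mouse build GRCm38, 6 of the 7 genes lie on the plus strand of chromosome MT, from mt-Nd1 at 2751 to 3707 through mt-Nd2 at 3914 to 4951, mt-Nd3 at 9459 to 9806, mt-Nd4l at 9877 to 10173 and mt-Nd4 at 10167 to 11544 to mt-Nd5 at 11742 to 13565. The gene mt-Nd6 lies on the minus strand at 13552 to 14070. In the annotation each gene is a single exon. The beginnings of the 7 genes are shown for their start codons: capitals mark the start codon, which is ATG in 3 of the genes and another codon in the rest. The letters are those of the GENCODE M21 transcripts, which stand at the same place and strand as in the count table for all 7 genes.
mt-Nd1: GTGttctttattaatatcctaacactcctc
mt-Nd2: ATAaatcctatcacccttgccatcatctac
mt-Nd3: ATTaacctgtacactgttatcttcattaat
mt-Nd4l: ATGccatctaccttcttcaacctcaccata
mt-Nd4: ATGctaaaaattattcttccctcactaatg
mt-Nd5: ATCaatattttcacaacctcaatcttatta
mt-Nd6: ATGaataattatatttttgttttaagttca
The message of mt-Nd6 stands out in its bases: 28.1% of them are G and 5.97% are C, whereas the other genes hold 7.996% to 11.6% G and 22.1% to 29.97% C.

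Pairs of these genes share bases. The end of mt-Nd4l and the beginning of mt-Nd4 share 7 bases on the same strand, in capitals below, and these genes are known to be carried on a single message. The ends of mt-Nd5 and mt-Nd6 lie on opposite strands and overlap by 14 bases, also in capitals, each run being the reverse complement of the other. Whether the reads were counted by strand, and where a read in such an overlap was placed, cannot be told from the sources used here. Reads of mt-Nd5 and mt-Nd6 near these ends thus cannot be told apart. Since both strands are transcribed as long RNAs, mt-Nd6 may also hold reads of the plus strand along its whole length if strand was ignored.
mt-Nd4l whole: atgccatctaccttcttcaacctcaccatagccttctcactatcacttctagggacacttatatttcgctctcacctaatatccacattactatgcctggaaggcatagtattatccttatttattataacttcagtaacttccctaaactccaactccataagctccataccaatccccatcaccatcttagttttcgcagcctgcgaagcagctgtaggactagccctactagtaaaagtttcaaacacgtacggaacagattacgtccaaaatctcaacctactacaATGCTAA
mt-Nd4 start: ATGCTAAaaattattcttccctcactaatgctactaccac
mt-Nd5 end: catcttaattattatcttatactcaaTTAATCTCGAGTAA
mt-Nd6 end: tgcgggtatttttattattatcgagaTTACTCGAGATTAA

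The libraries held between 16423523 and 22975526 counted reads, and each of the 7 genes was counted in every library. Every male library held fewer reads, 16423523 to 20075567, than any female library, 20730243 to 22975526. The part of this depth in differences between the sexes was not tested. The genes mt-Nd1, mt-Nd2, mt-Nd4, mt-Nd5 and mt-Nd6 had 10399 to 192013 reads in a library, mt-Nd3 had 260 to 748 and mt-Nd4l 61 to 261, so counting error bears mainly on the last 2 genes. Stressed male 1, stressed male 3 and control male 1 stood apart through reads of Yam1, a noncoding RNA gene, at 1.39%, 4.13% and 1.00% of all counts against 0.171% to 0.5% in the other 9 libraries. The split is less clean in Gm26917, the other RNA of that list, which was at 21.3, 52.4 and 25.4 CPM (counts scaled to a common library size, with TMM factors) in them but also at 20.6 CPM in control male 3, and at 4.86 to 8.68 CPM in the remaining libraries. Both pups of control dam 3 stood apart through markers of the upper small intestine, with summed levels of 15647 CPM in the male and 6930.1 CPM in the female against 960 to 2854 CPM elsewhere. The 10 enterocyte markers were present in every library, at a summed 5170.1 to 10610.2 CPM, and so were the 5 ileal markers found in the table, at 366 to 1340.3 CPM.

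Per length of gene, the levels spanned a wide range. In FPKM, which divides the counts by gene length and library total, mt-Nd1 was the highest at 6166 ± 2079 FPKM (mean ± SD over 12 libraries) and stood above every other member in all 12. The protein of mt-Nd1 lies where ubiquinone enters the enzyme. Next came mt-Nd6 at 2460 ± 677 FPKM, mt-Nd2 at 2368 ± 658 FPKM and mt-Nd5 at 2285 ± 785 FPKM, and the order of these genes was not fixed: mt-Nd6 was above mt-Nd2 in 6 of 12 libraries and mt-Nd2 above mt-Nd5 in 7 of 12. The gene mt-Nd4 followed at 1549 ± 515 FPKM and was below mt-Nd5 in all 12 libraries. Its protein and those of mt-Nd2 and mt-Nd5 are the antiporter-like subunits of the proton-pumping arm. Far lower were mt-Nd3 at 73.3 ± 20.3 FPKM and mt-Nd4l at 21.2 ± 10.2 FPKM, small subunits near the joint of the membrane and matrix arms. In every library mt-Nd4 was 10.1 to 29.0 times as high as mt-Nd3 per length, and mt-Nd3 was 1.99 to 7.47 times as high as mt-Nd4l. Much of the sequence of mt-Nd4, mt-Nd3 and mt-Nd4l is also found in nuclear copies, described next. How reads of such sequence were counted is not known, so the places of these genes in the order are uncertain.

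The sequences of mt-Nd3 and mt-Nd4l and part of that of mt-Nd4 are also found in the nucleus. The annotation has a run of pseudogenes on the minus strand of chromosome 1 that copies this stretch of mitochondrial DNA, and the count table lists the copies of mt-Nd3 and mt-Nd4 under the clone names RP23-8J15.5 and RP23-8J15.7. Gm10222, at 24612407 to 24612700, matched mt-Nd4l in 294 of 294 compared bases. Gm28439, at 24611535 to 24612410, matched the first 876 bases of mt-Nd4 without a mismatch, which is 63.6% of that gene. Gm28438, at 24612775 to 24613119, matched mt-Nd3 in 344 of 345 bases. The single difference is T3C, counted from the first base of mt-Nd3 with the base of the mitochondrial gene first, and it is in capitals here.
mt-Nd3: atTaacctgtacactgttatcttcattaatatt
Gm28438: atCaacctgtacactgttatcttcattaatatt
Of all stretches of 100 bases in each gene, 97.6% of those of mt-Nd3, 98.5% of those of mt-Nd4l and 60.8% of those of mt-Nd4 were found unchanged in a transcript of one of these copies. The share was 3.19% for mt-Nd2, in the pseudogene Gm13339, and 0% for mt-Nd1, mt-Nd5 and mt-Nd6. Only annotated transcripts were searched, not the whole genome, and no read length is given; with stretches of 50 bases the shares were 8.19% for mt-Nd2 and 7.61% for mt-Nd5.

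**Figure D1:**
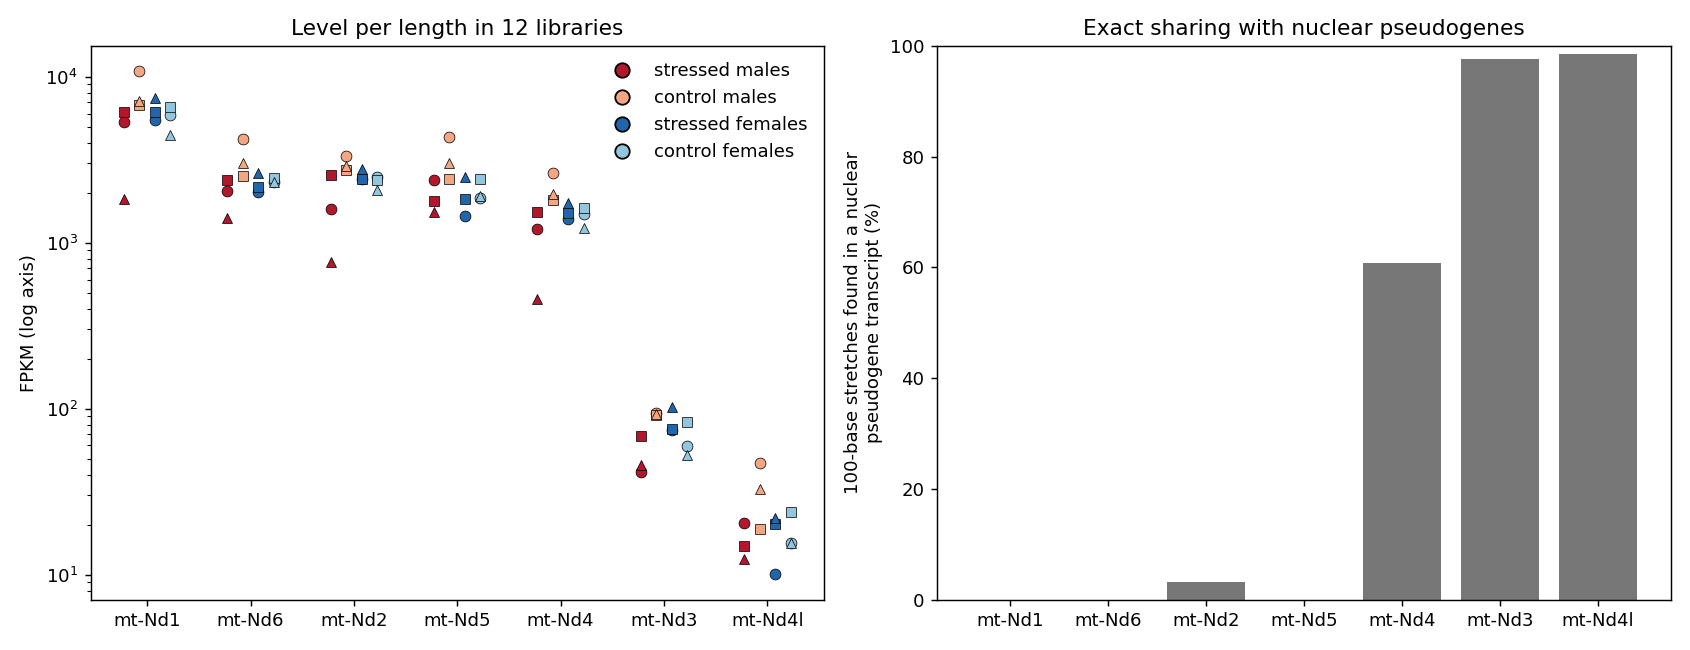
Left, FPKM of each gene on a log axis in the 12 libraries, with groups by colour and dams 1, 2 and 3 of each group as circle, square and triangle. Right, the percentage of 100-base stretches of each gene that an annotated nuclear pseudogene transcript holds unchanged. The genes at the right end, mt-Nd3 and mt-Nd4l, have mean levels of 73.3 and 21.2 FPKM and shared stretches of 97.6% and 98.5%, and mt-Nd4 has 60.8% shared stretches at a mean of 1549 FPKM.

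The copies themselves were counted. Gm10222 held 66 to 244 reads in a library, which was 44.8% to 54.6% of the reads of mt-Nd4l and its copy together. The copy of mt-Nd3 held 34 to 285 reads, or 11.6% to 31.4% of both, with the lowest share in stressed male 3. The copy of mt-Nd4 held 1.05% to 1.68% of both. The labels and headers do not state how reads that match a gene and its copy equally were placed, or whether they were counted. The copy's counts therefore do not bound the reads that a gene may lack. The levels of mt-Nd3, mt-Nd4l and mt-Nd4 are uncertain for this reason. With the copy's counts added to the gene's, the log2 ratio of group means in stressed over control males was -0.91 for mt-Nd3, -0.93 for mt-Nd4l and -1.06 for mt-Nd4, and without the copy it was -0.90, -1.10 and -1.06. In females the ratios with the copy were 0.32, -0.08 and 0.06, and without it 0.34, -0.10 and 0.06.

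In males all 7 genes were lower in stressed than in control pups, by log2 fold changes of -1.09 to -0.79 with a median of -0.93, beside a median of 0.01 over all 16102 genes. These are the values that chose the genes and they stand as a description. The antiporter-like subunits are taken first. The gene mt-Nd2 stood at 1682, 2579 and 823 CPM in stressed males 1, 2 and 3, against 3448, 2797 and 3417 CPM in control males. The gene mt-Nd4 stood at 1682.5, 2059 and 661 CPM in stressed males, against 3639.5, 2447 and 3111 CPM in control males. The gene mt-Nd5 stood at 4378, 3174 and 2918 CPM in stressed males, against 7889, 4346 and 6298 CPM in control males. The groups did not overlap for mt-Nd2 and mt-Nd4, and for mt-Nd5 stressed male 1 lay just above control male 2. Group means were 1695 ± 878 and 3221 ± 367 CPM for mt-Nd2 in stressed and control males, and 1467 ± 724 and 3066 ± 598 CPM for mt-Nd4 (mean ± SD of 3 libraries). The fitted log2 fold changes were -0.93 for mt-Nd2, -1.06 for mt-Nd4 and -0.82 for mt-Nd5.

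The gene mt-Nd1, at the ubiquinone site, stood at 5183, 5727 and 1826 CPM in stressed males, against 10365, 6372 and 7759 CPM in control males (log2 fold change -0.94). Stressed male 3 was far below the rest and control male 1 far above, and stressed male 2 was close to control male 2. The small subunits gave similar differences. The gene mt-Nd3 stood at 14.6, 23.0 and 16.5 CPM in stressed males, against 32.8, 31.2 and 37.1 CPM in control males (log2 fold change -0.90). The gene mt-Nd4l stood at 6.14, 4.32 and 3.88 CPM in stressed males, against 14.1, 5.49 and 11.1 CPM in control males (log2 fold change -1.09). The gene mt-Nd6, transcribed from the other strand, stood at 1069, 1211 and 763 CPM in stressed males, against 2194.5, 1291 and 1781 CPM in control males (log2 fold change -0.79). For mt-Nd4l the groups overlapped through stressed male 1 and control male 2, and for mt-Nd3 the nearest values were the 23.0 CPM of stressed male 2 and the 31.2 CPM of control male 2. In 5 of the 7 genes, mt-Nd1, mt-Nd2, mt-Nd3, mt-Nd4 and mt-Nd6, all 3 stressed males lay below all 3 control males, which 2.95% of all genes did, and none of the 7 showed the opposite order, which 2.72% of all genes did; nothing is read from these shares since the same libraries chose the genes. In bulk tissue, fewer cells of a type and less RNA per cell cannot be told apart, and what a CPM value shows is a share of the counted reads.

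**Figure D2:**
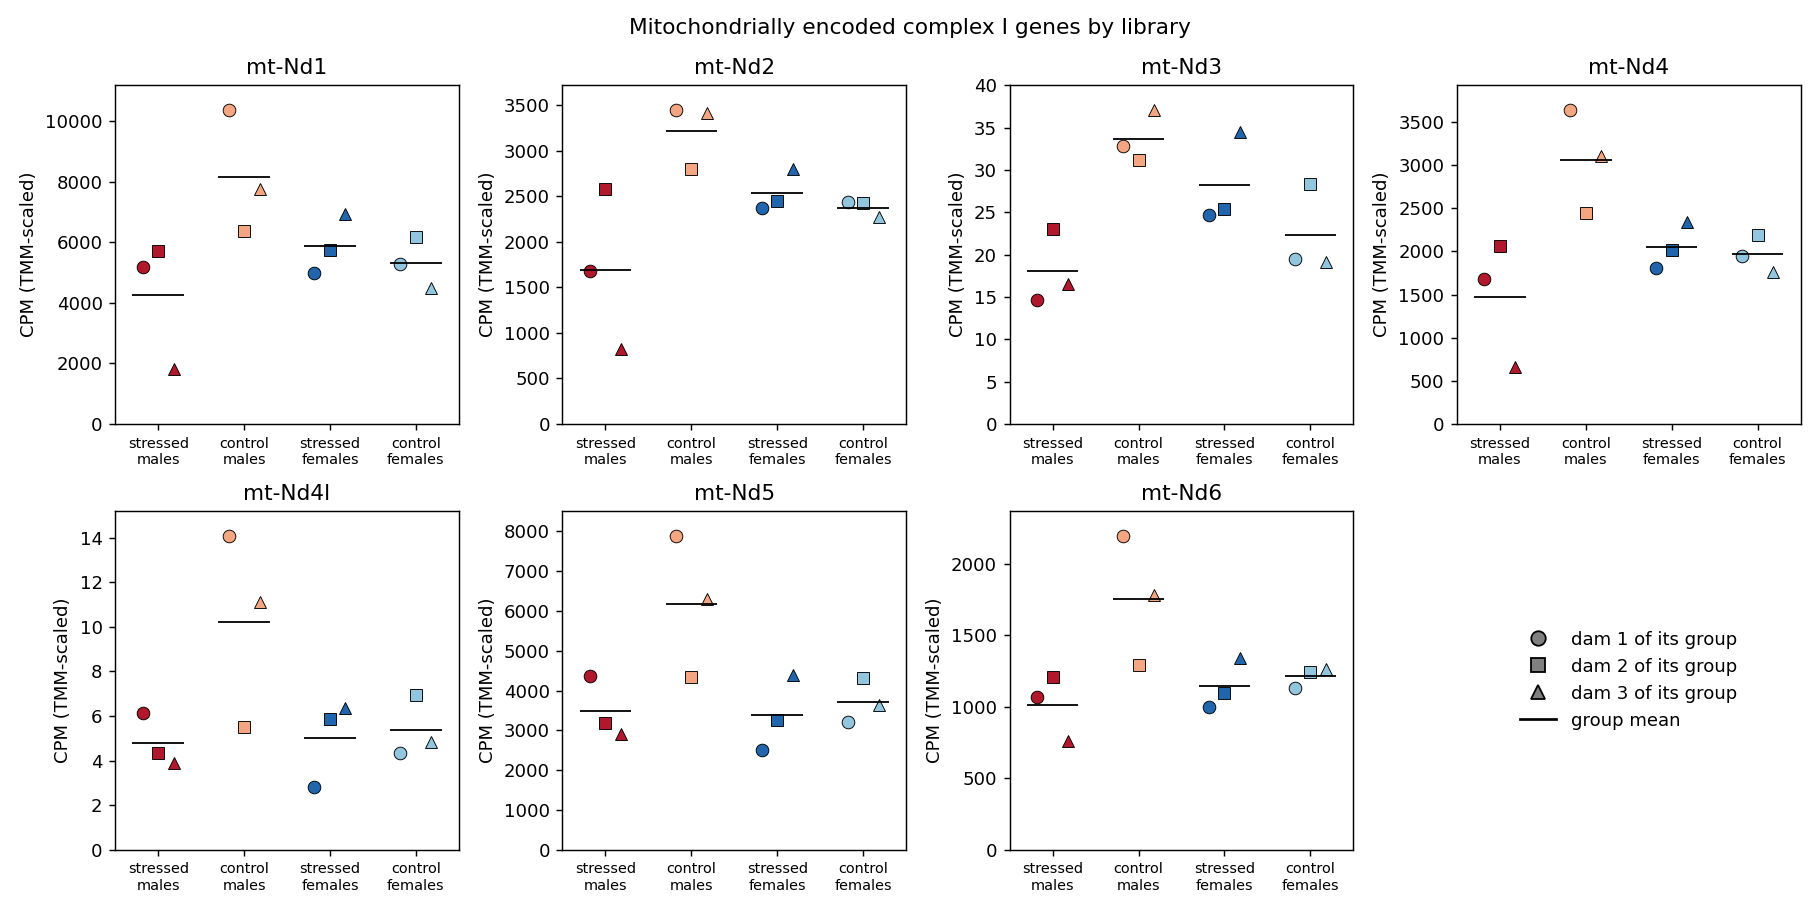
CPM of each gene by library, each panel on its own axis from 0, with points for pups of dams 1, 2 and 3 of each group and a line at the group mean. Stressed males lie lowest as a group in every panel except mt-Nd5, where their mean of 3489.9 CPM is just above the 3396 CPM of stressed females, and control males lie highest, with control male 2 nearest to the stressed males in all 7 panels.

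Single male libraries weighed on these values. Stressed male 3 was the lowest male in 6 of the 7 genes and control male 1 the highest in 6, and both are among the libraries rich in Yam1. Without stressed male 3 the log2 fold changes were -0.58 for mt-Nd1, -0.60 for mt-Nd2 and -0.71 for mt-Nd4. Without stressed male 2 they were -1.24 for mt-Nd1, -1.38 for mt-Nd2 and -1.4 for mt-Nd4. Without the 3 libraries rich in Yam1, which leaves stressed male 2 alone against control males 2 and 3, the median of the 7 genes was -0.43, with -0.30 for mt-Nd1, -0.27 for mt-Nd2, -0.43 for mt-Nd4 and -0.34 for mt-Nd6. Stressed male 2 lay below both of these control males in 7 of 7 genes. The share of all genes that did so was not computed, and nothing is read from this count since the male libraries chose the genes. Marker sums also varied among the male groups. The 8 smooth muscle markers summed to 4521 to 5307 CPM in stressed males and 2881 to 7983 CPM in control males, the 6 enteric neuron markers to 58.3 to 78.3 and 45.1 to 113 CPM, and the 10 enterocyte markers to 6039 to 6595 and 5170.1 to 10610.2 CPM. Some lists had all tested markers on one side of 0 in stressed over control males. The 6 fibroblast markers were all above 0 (median log2 fold change 0.36) and summed to 6922 to 8342 CPM in stressed males and 4680.3 to 7599.9 CPM in control males. The 5 markers of the upper small intestine were all below 0 (median -2.80) and summed to 960 to 2854 CPM in stressed males and 1021 to 15647 CPM in control males. The 3 tested pancreas markers were all below 0, with sums of 12.6 to 26.4 and 8.37 to 68.8 CPM over the 8 of the list. The other 5 pancreas markers had a mean of 0 FPKM, so these sums come from the 3 tested ones alone. Control male 3 was the highest in the sums of both lists. The part of Yam1 reads and of tissue makeup in the difference was not tested.

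In females, which did not enter the choice of the genes, no difference between stressed and control pups passed the test. The count was 0 of 7 in edgeR's quasi-likelihood test at an adjusted p of 0.05, beside 0% of all 16102 genes, of which 48 had an unadjusted p under 0.05 and none of those was a member. The largest difference was in mt-Nd3, at 24.7, 25.4 and 34.5 CPM in stressed females and 19.5, 28.3 and 19.1 CPM in control females. Its log2 fold change was 0.34 ± 0.21 (SE, edgeR adjusted p = 1), with a 95% confidence interval from -0.12 to 0.80. The gene mt-Nd1 stood at 4970.4, 5734 and 6925 CPM in stressed females and at 5296, 6179.7 and 4482 CPM in control females, a log2 fold change of 0.14 ± 0.37. In both genes the groups overlapped. The model behind these tests pooled the spread of all groups, males included, so its SEs, intervals and p-values are not those of females alone. For mt-Nd2 the SD was 878 and 367 CPM in stressed and control males but 227 and 90.8 CPM in stressed and control females. Stressed females had a larger SD than stressed males for mt-Nd3, mt-Nd4l and mt-Nd5, and control females than control males for mt-Nd3. A fit of the female libraries alone also had no gene past the threshold.

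The antiporter-like subunits had small differences between the female groups. The gene mt-Nd2 stood at 2374, 2451 and 2801 CPM in stressed females and at 2435, 2422 and 2272 CPM in control females (0.10 ± 0.31 on the log2 scale). The gene mt-Nd4 stood at 1811, 2013 and 2339 CPM in stressed females and at 1947, 2194 and 1763 CPM in control females (0.06 ± 0.33). The gene mt-Nd5 stood at 2517, 3269.7 and 4400.5 CPM in stressed females and at 3217, 4308 and 3643 CPM in control females (-0.13 ± 0.28). Stressed female 1 was the lowest of the 6 females in mt-Nd4l, mt-Nd5 and mt-Nd6. The gene mt-Nd4l stood at 2.82, 5.86 and 6.36 CPM in stressed females and at 4.36, 6.94 and 4.82 CPM in control females (-0.10 ± 0.38), and mt-Nd6 at 997, 1095 and 1338 CPM in stressed females and at 1132, 1244 and 1264 CPM in control females (-0.09 ± 0.23). Of the 7 log2 fold changes 4 were above 0 and 3 below, with a median of 0.06 beside a median of -0.005 over all genes. In no gene did the female groups part, in either direction; all 3 stressed females lay above all 3 control females in 3.07% of all genes and below them in 2.49%. The upper bounds of the 95% confidence intervals reached 0.94 in mt-Nd1, with lower bounds from -0.93 in mt-Nd4l to -0.12 in mt-Nd3. The authors' deposited table gives log2 fold changes of -0.0796 for mt-Nd5 to 0.188 for mt-Nd3 for stressed over control females, with an adjusted p of 1 for each of the 7. Each was smaller in size than the value fitted here, which was -0.13 for mt-Nd5 and 0.34 for mt-Nd3. The 2 sets of values may thus be on unlike scales, and the reason was not tested.

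The difference between the male and the female change was not tested, because the male values chose the genes. Side by side, the log2 fold changes in males and in females were -0.94 and 0.14 for mt-Nd1, -0.93 and 0.10 for mt-Nd2, -0.90 and 0.34 for mt-Nd3, -1.06 and 0.06 for mt-Nd4, -1.09 and -0.10 for mt-Nd4l, -0.82 and -0.13 for mt-Nd5 and -0.79 and -0.09 for mt-Nd6.

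**Figure D3:**
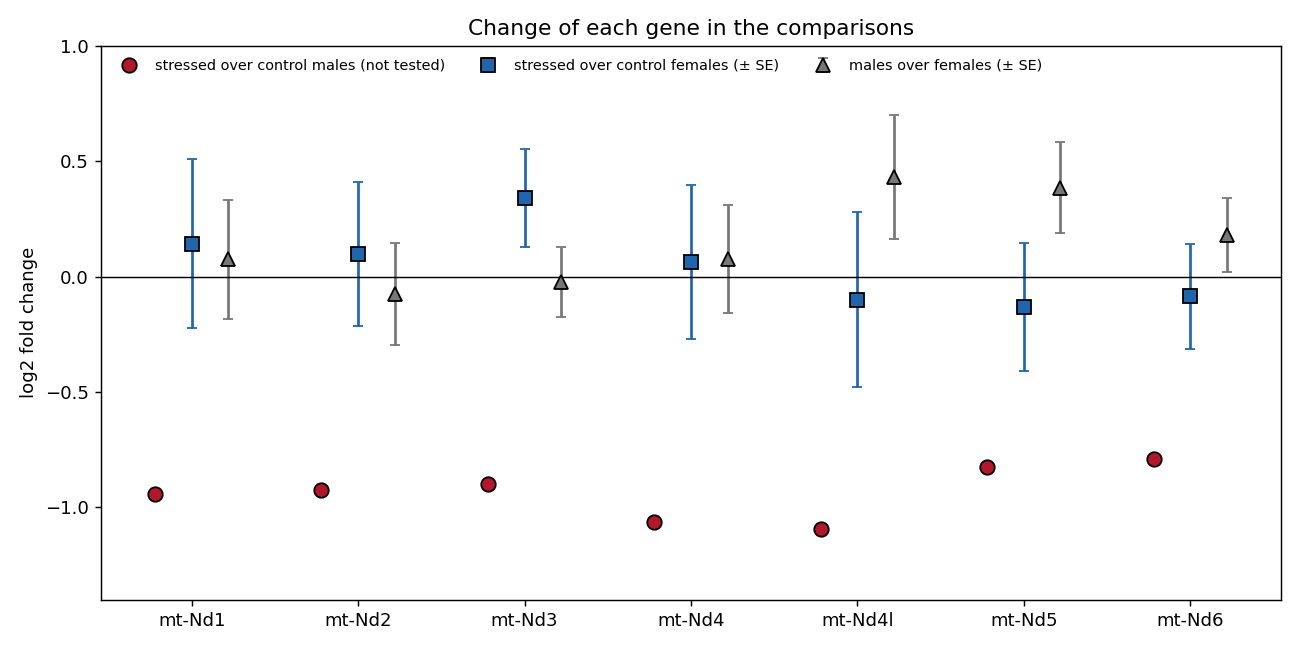
Log2 fold changes of the 7 genes for stressed over control males (circles, no error shown because the contrast chose the genes), stressed over control females (squares) and males over females (triangles), with bars of 1 SE. The circles lie between -1.09 and -0.79, the squares between -0.13 and 0.34 and the triangles between -0.07 and 0.43.

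Males were compared with females as the mean of that difference in stressed and in control pups, which is not the contrast that chose the genes but uses the same male libraries. The male groups also differed in spread, with an SD of 878 CPM in stressed and 367 CPM in control males for mt-Nd2, so these tests are not fully separate from the choice of the genes. None of the 7 genes passed the threshold, beside 0.0497% of all genes (8 of 16102, all of them on chromosome X or Y). Without stressed male 2 the count over all genes was 1384, and no member was among them. The largest differences were in mt-Nd4l and mt-Nd5. The gene mt-Nd4l had a lowest, median and highest level of 3.88, 5.81 and 14.1 CPM in the 6 males and of 2.82, 5.34 and 6.94 CPM in the 6 females, a log2 fold change of 0.43 ± 0.27 (SE, edgeR adjusted p = 0.463). The gene mt-Nd5 had 2918, 4362 and 7889 CPM in males and 2517, 3457 and 4400.5 CPM in females, a log2 fold change of 0.39 ± 0.20 (edgeR adjusted p = 0.420; 95% interval -0.05 to 0.82). The ranges overlapped widely in both. For mt-Nd6 the log2 fold change was 0.18 ± 0.16, and for mt-Nd1, mt-Nd2, mt-Nd3 and mt-Nd4 it lay between -0.07 and 0.08. The male values were more spread out: mt-Nd2 ran from 823 to 3448 CPM in the 6 males (SD 1030) and from 2272 to 2801 CPM in the 6 females (SD 179.5). That spread was not tested.

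With the counts of littermates summed, so that the dam is the unit, the male values enter again and no test is given. The gene mt-Nd1 stood at 5002, 5795 and 4766 CPM for stressed dams 1, 2 and 3, against 7537, 6369.8 and 5845 CPM for control dams. The gene mt-Nd5 stood at 3334, 3261 and 3766 CPM for stressed dams, against 5272, 4393 and 4747 CPM for control dams. The gene mt-Nd3 stood at 19.8, 24.6 and 26.8 CPM for stressed dams, against 25.4, 30.2 and 26.6 CPM for control dams. In 6 of 7 genes, all but mt-Nd3, the litters of stressed dams lay below those of control dams, beside 3.18% of all 16749 genes in that fit, and none lay above them, beside 2.53%. The median log2 fold change of the 7 was -0.42, beside 0.005 over all genes.

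The make-up of the mitochondrial reads differed among the libraries, whatever their amount. Each gene is given here as its share of the reads of all 13 mitochondrially encoded protein genes. The share of mt-Nd5 was 19.9% in stressed male 1, 24.1% in stressed male 3 and 17.2% in control male 1, against 8.37% to 12.8% in the other 9 libraries. The share of mt-Nd6 was 4.86%, 6.29% and 4.77% in those libraries, against 3.12% to 3.997% in the others. The share of mt-Nd4l was 0.0279%, 0.0320% and 0.0306%, against 0.00939% to 0.0226%. These are the libraries rich in Yam1, and for mt-Nd5, mt-Nd6 and mt-Nd4l they did not overlap with the rest. Their number is small, they were singled out from the data, and they hold pups of both treatments.

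The other members did not follow this split evenly. The share of mt-Nd1 was 23.6% in stressed male 1 and 22.5% in control male 1 but 15.1% in stressed male 3, against 14.2% to 17.1% in the other 9 libraries. The share of mt-Nd4 likewise was 7.65% and 7.91% in stressed male 1 and control male 1 and 5.45% in stressed male 3, against 5.57% to 6.31% elsewhere. The share of mt-Nd2 was 6.79% to 7.65% in these libraries, within the 6.69% to 7.90% of the others. The share of mt-Nd3 ran the other way from that of mt-Nd1, at 0.136% in stressed male 3 against 0.0594% to 0.0845% in the other 11 libraries, stressed male 1 and control male 1 among them. The lower share in these libraries was chiefly that of mt-Co1, a catalytic subunit of cytochrome c oxidase, at 24.4%, 32.2% and 27.1% in stressed male 1, stressed male 3 and control male 1, against 39.6% to 43.7% elsewhere. The share of mt-Cytb, a gene of complex III, was also lower in them, at 9.63% to 12.24% against 12.55% to 15.20% in the other 9 libraries. Together the 7 complex I genes took 57.8% to 63.7% of mitochondrial reads in the libraries rich in Yam1 and 41.8% to 45.5% in the others. The ratio of mt-Nd6 to the 6 genes of the plus strand was 0.122 in stressed male 3 and 0.104 in control female 3, against 0.0807 to 0.0893 in the other 10 libraries. With the strand setting unknown, the share and the ratio of mt-Nd6 may include reads of plus-strand RNA.

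**Figure D4:**
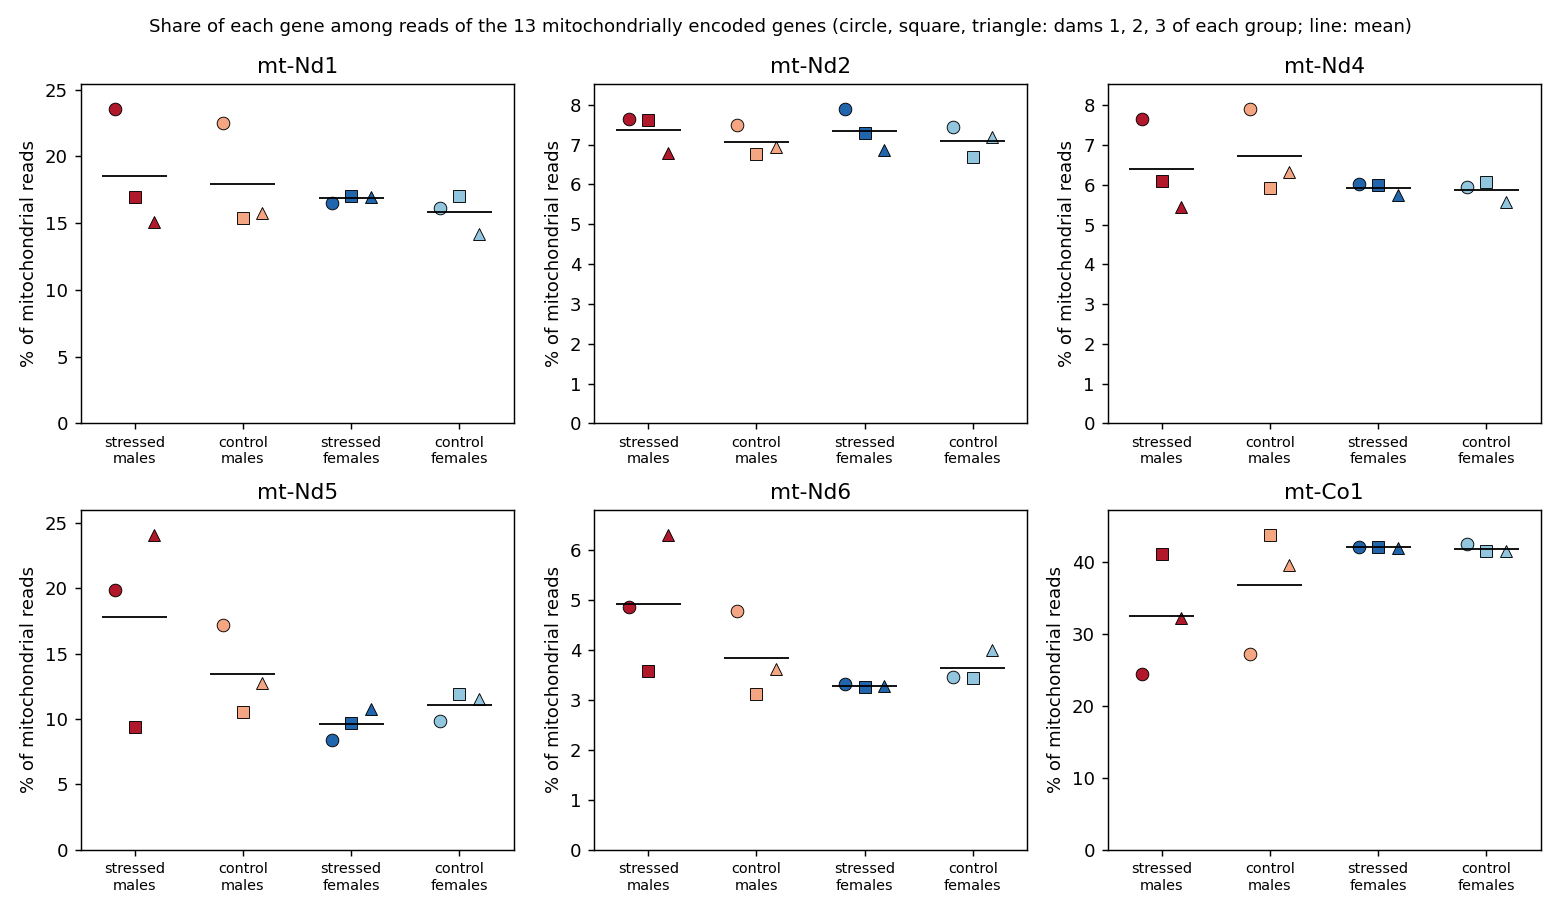
Share of 5 complex I genes and of mt-Co1 among the reads of the 13 mitochondrially encoded protein genes, by library, each panel from 0, with a line at the group mean. For mt-Nd5 and mt-Nd6 the circle and triangle of stressed males and the circle of control males lie above all other points, at 17.2% to 24.1% and 4.77% to 6.29%, and for mt-Co1 they lie below all others, at 24.4% to 32.2%.

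Set against Yam1, the amount and the make-up of the reads of these genes did not move together. The 7 genes took 1.39%, 1.52% and 0.672% of all counts in stressed males 1, 2 and 3, 2.75%, 1.76% and 1.96% in control males, 1.34%, 1.499% and 1.83% in stressed females and 1.49%, 1.67% and 1.28% in control females. Of the libraries rich in Yam1, stressed male 3 thus held the smallest share of the 12 and control male 1 the largest. The ratio of mt-Nd5 to mt-Co1 counts was 0.817, 0.748 and 0.632 in stressed male 1, stressed male 3 and control male 1, against 0.199 to 0.323 in the other libraries. The highest of these others was control male 3, which was also next in Yam1.

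**Figure D5:**
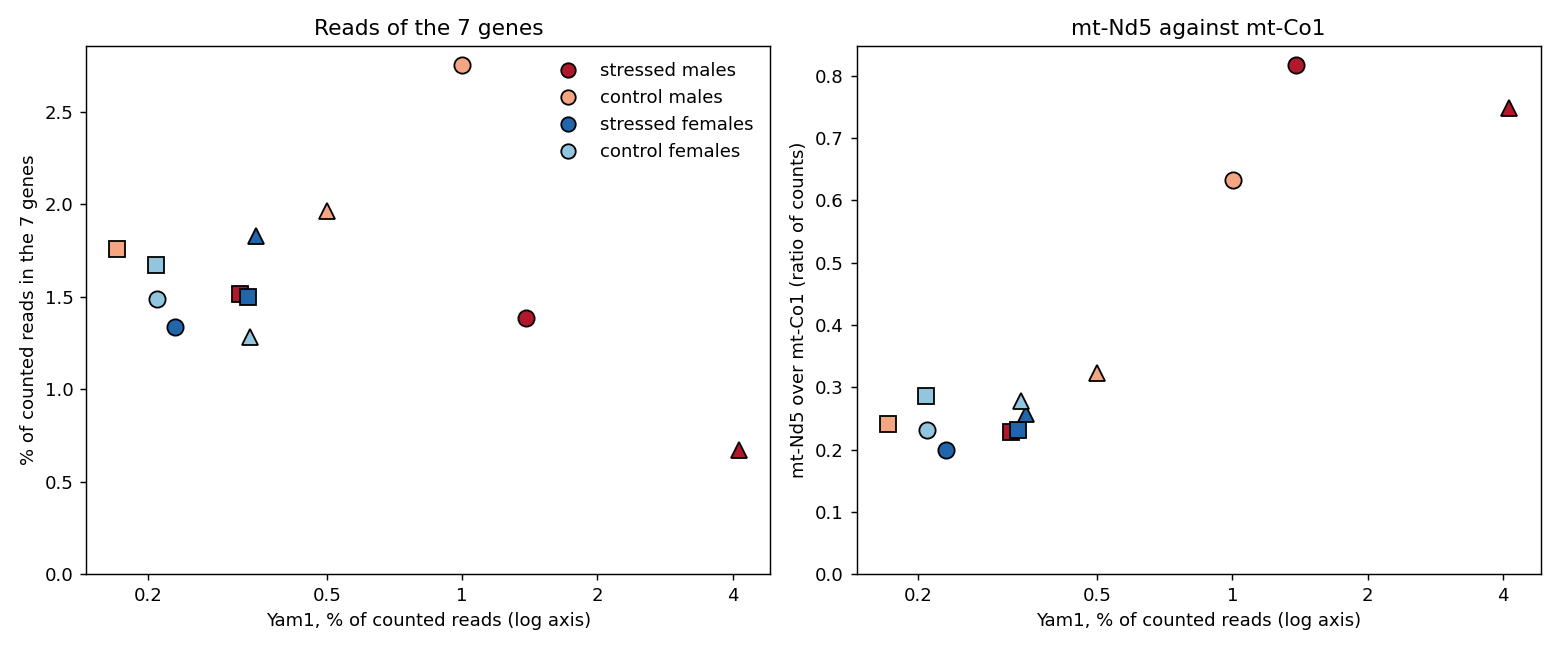
Yam1 reads as a percentage of all counts, on a log axis, against the percentage of counts in the 7 complex I genes (left) and the ratio of mt-Nd5 to mt-Co1 counts (right); colours are groups and circle, square and triangle are dams 1, 2 and 3. At Yam1 above 1% the share of the genes ranges from 0.672% to 2.75%, while the ratio lies between 0.632 and 0.817, above the 0.199 to 0.323 of all other libraries.

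The other mitochondrially encoded genes gave similar male values. Of the 6, mt-Atp8, an ATP synthase subunit, had 0 to 2 reads in a library and was not tested. In stressed over control males the log2 fold changes were -1.11 for mt-Cytb (complex III), -1.11 for mt-Co1, -1.07 for mt-Co2 and -0.96 for mt-Co3 (complex IV) and -0.92 for mt-Atp6 (ATP synthase), with a median of -1.07 beside -0.93 for the 7 complex I genes. In stressed over control females none of the 5 tested passed, with a median of 0.16. In males over females none passed, and the median was -0.34 where that of the complex I genes was 0.08. For mt-Co1 the male over female value was -0.34 ± 0.28 (edgeR adjusted p = 0.570). All 5 were below 0 in that comparison, while 5 of the 7 complex I genes were above 0; the difference between the lists was not tested.

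Complex I subunits made from nuclear genes had log2 fold changes closer to 0. None of the 7 core subunits and none of the 29 accessory subunits passed the threshold in females or between the sexes. Ndufs3, a core subunit of the matrix arm and the highest of its list per length at 80.3 FPKM, had a log2 fold change of -0.005 in females and of -0.22 in males. Ndufb9 and Ndufa6, the highest accessory subunits, stood at 89.5 ± 31.8 and 81.0 ± 6.45 CPM in stressed males, against 119 ± 20.0 and 98.5 ± 9.36 CPM in control males (mean ± SD of 3 libraries). Over the lists the male medians were -0.16 for core subunits, with 7 of 7 below 0, and -0.25 for accessory subunits, with 27 of 29 below 0; 48.3% of all genes were below 0. In females the medians were -0.005 and 0.04. The 14 assembly factors had medians of -0.04 in males and 0.02 in females with none past the threshold in females, Ndufaf8 and Ndufaf2 being the highest per length at 23.6 and 21.0 FPKM.

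Genes that make and process mitochondrial RNA were near the median of all genes. Of 15 genes of mitochondrial transcription and DNA maintenance, none passed in females or between the sexes, and the medians were 0.07 in females and -0.09 in males. Ssbp1, which coats single-stranded mitochondrial DNA, and Polg, the mitochondrial DNA polymerase, were the highest per length, with log2 fold changes in males of 0.02 and 0.12. Of 17 genes of mitochondrial RNA processing and stability none passed, with medians of -0.03 in females and -0.02 in males. Among these Hsd17b10, a subunit of the mitochondrial RNase P, had a log2 fold change of -0.10 in males and Grsf1, a protein of mitochondrial RNA granules, one of 0.02. Of 7 regulators of mitochondrial biogenesis none passed, and Esrra, an orphan nuclear receptor, and Yy1, a transcription factor, had values of -0.31 and 0.07 in males and -0.28 and -0.03 in females.

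The genes whose levels followed the 7 most closely were ranked by the Pearson correlation of their log2 CPM with the mean log2 CPM of the members over 12 libraries, among 14512 genes of at least 1 CPM on average. The libraries share litters and scaling, so the coefficients are descriptions. The closest was the nuclear copy of mt-Nd4 (r = 0.977), and with another pseudogene, Gm13341, it was passed over as a clone name. The 8 closest of the rest were Ube2l3 (r = 0.934), a ubiquitin-conjugating enzyme, Ltbr (0.917), the lymphotoxin beta receptor, Hnrnpl (0.913), a splicing regulator, Rassf3 (0.909), Pi4k2a (0.906), a phosphatidylinositol kinase, Rfng (0.887), a glycosyltransferase that acts on Notch, Cyb5r3 (0.880), a cytochrome b5 reductase, and Mall (0.879). Without stressed male 3 and control male 1, the libraries farthest from the median of the members, the coefficients were 0.763 for Ube2l3, 0.771 for Ltbr, 0.832 for Hnrnpl, 0.890 for Cyb5r3 and 0.554 for Mall. The other mitochondrially encoded genes ranked lower, from mt-Cytb at rank 46 (r = 0.822) to mt-Co1 at rank 211 (r = 0.701).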

How the data were processed

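Total RNA of 12 ileum libraries was sequenced. Per the file headers, the authors deposited raw read counts and FPKM values for the same 35275 genes, and a table of comparisons with log2 fold changes and p-values. Among the tools in the submitters' processing notes are HTSeq 0.6.1, STAR 2.5, TopHat, edgeR 3.16.5 and DESeq2, with the builds GRCm38 and mm10; the annotation release, strand setting and read length are not given in the sources used here. Each of the 240813 nonzero FPKM values matched the count per gene length and library total within 1e-06.

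All 4 groups entered 1 model of the counts (8 residual degrees of freedom), fitted to 16102 genes kept by filterByExpr and scaled by TMM, and contrasts were tested with the quasi-likelihood F test of edgeR 4.0.16 under R 4.3.3 (Benjamini-Hochberg threshold 0.05). The tested comparisons were stressed against control females and males against females. Alternatives were median-ratio size factors, library totals without TMM, scaling without mitochondrially encoded genes, DESeq2 1.42.0, limma 3.58.1 on log2(FPKM + 1) and log2(FPKM + 0.1), other filters, a replicate block, the 6 libraries of 1 sex alone, each library left out, and the fits without both pups of control dam 3 or the 3 libraries rich in Yam1. The code was tested on simulated data.

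The genes and gene lists were chosen with earlier results of these data known. Named beside the members were the 6 other mitochondrially encoded genes, the 2 of highest mean FPKM of each list, any past the threshold (at most 3), and the 8 highest correlations that were no clone name, with 2 clone names passed over. A gene that this rule takes is not reported here. By the labels the number marks the dam, so littermates pair between the sexes; across genes, deviations of littermates correlated from -0.482 to 0.595, so this pairing rests on the labels. Figures were drawn with matplotlib 3.10.9.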

Additional observations from a re-analysis of the deposited data

Results flagged for a closer look

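For mt-Nd3, the stressed pups lay on opposite sides of the control mean in the sexes. All 3 stressed males lay below the mean of the control males and all 3 stressed females above the mean of the control females. The male part held for each of the 7 genes, so only the female part set mt-Nd3 apart. In the other members 1 or 2 of the 3 stressed females lay above that mean. The share of all genes with the same pattern was not computed. The female groups themselves overlapped. The log2 fold change of stressed over control pups in males minus that in females was -1.24. This difference was not tested, and the male values are among those that chose the gene. The copy of mt-Nd3 on chromosome 1 held 20.5%, 29.7% and 11.6% of the counts of gene and copy in stressed males and 24.4%, 25.9% and 19.4% in control males, and its part in the difference was not tested.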

How the results depend on the processing

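No gene of the 16102, and none of the 7 members, passed the threshold in females under any of the 12 other settings or with any library left out (27 to 203 genes and at most 1 member had an unadjusted p under 0.05). Between the sexes none of the 7 passed in any setting, while the count over all genes, 8, was 18 with DESeq2 and 5 without the 3 libraries rich in Yam1, where the lone stressed male is assumed to vary like the other groups; with each library left out it ran from 8 to 1384, the highest without stressed male 2. The median log2 fold change of the 7 genes in males, -0.926, was -0.432 without the libraries rich in Yam1, ran from -1.14 to -0.709 with each library left out and from -0.986 to -0.863 otherwise; the cause of these shifts was not tested.

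Some values near 0 changed sign. In males over females mt-Nd1 was -0.077 and mt-Nd4 -0.0699 or -0.0701 with limma on log2(FPKM + 1) or log2(FPKM + 0.1), and without the libraries rich in Yam1 mt-Nd2 was 0.205 and mt-Nd3 0.162. In females mt-Nd4 was -0.0151 without both pups of control dam 3. With each library left out, mt-Nd1 ran from -0.05 to 0.255, mt-Nd2 from -0.277 to 0.0917, mt-Nd3 from -0.118 to 0.0938 and mt-Nd4 from -0.0716 to 0.252 between the sexes, and mt-Nd4 from -0.0356 to 0.136, mt-Nd4l from -0.298 to 0.175 and mt-Nd5 from -0.356 to 0.0312 in females.

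With the dam number as a replicate block 0 genes passed in females and the male median was -0.986. Between the sexes the 6 dams were the replicate block, so that each male was set against its own littermate, and 6 genes passed, none of them a member. Between stressed and control pups the number is only a name (correlations of deviations -0.406 to 0.357). The block changed no call of a member. The lowest counts, 61 in mt-Nd4l and 260 in mt-Nd3, limit the precision of these genes most.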

Other observations

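Over the 12 libraries the log2 CPM of the 7 genes did not form a single tight group. The 21 pairs had Pearson correlations from 0.524 to 0.989 with a median of 0.751, as a description over libraries that share litters and scaling. The highest were mt-Nd1 with mt-Nd4 at 0.989, mt-Nd2 with mt-Nd4 at 0.972 and mt-Nd4l with mt-Nd5 at 0.969. The lowest were mt-Nd2 with mt-Nd4l at 0.524 and mt-Nd2 with mt-Nd5 at 0.536. Without stressed male 3 and control male 1, mt-Nd4l with mt-Nd5 stood at 0.941 and mt-Nd2 with mt-Nd5 at 0.378.

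The reads of mt-Nd4l for each 1000 of mt-Nd4, with which it shares a message, numbered 3.65, 2.10 and 5.87 in stressed males 1, 2 and 3, 3.87, 2.24 and 3.58 in control males, 1.56, 2.91 and 2.72 in stressed females and 2.24, 3.162 and 2.74 in control females. These ratios rest on 61 to 261 reads of mt-Nd4l in a library. How reads that match a gene and its nuclear copy were counted is not known, so the ratios are not read as amounts of RNA.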
